A study of Mus musculus with 9 samples.

Results

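The shared response of mouse small intestinal organoids to a TGF-beta receptor inhibitor and to TGF-beta1 is described here. A gene belonged to it where all 6 treated arrays lay above, or all below, all 3 untreated arrays. Of 12941 genes tested, 1196 (9.24%) met this rule, 755 of them higher (5.83%) and 441 lower (3.41%) in the treated organoids. Organoids are epithelial structures grown in culture that hold stem cells beside differentiated cells. RNA was read on 9 Affymetrix arrays in 3 groups of 3: organoids with no treatment, with a TgfbR1/2 inhibitor at 20 uM and with Tgfb1 ligand at 0.04 ng/mL. Treatment ran for 5 days from day 1 of a 6-day culture, in all treated groups alike, and no genotype, strain, age, vehicle or compound name is given in the sources used here. Nothing in the labels states that the arrays of a group came from different cultures. The p-values below are thus measured against array-to-array spread that may be technical.

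TGF-beta1 binds a pair of receptor kinases that phosphorylate Smad2 and Smad3, and these move to the nucleus with Smad4 and act on target genes. In the gut epithelium the pathway is known for slowing division and favouring differentiation, and receptor inhibitors block it. A ligand and an inhibitor of its receptor act on the pathway in opposite senses, so the genes described here are those whose levels moved to the same side of untreated under both. Both comparisons rest on the same 3 untreated arrays. A feature of those 3 arrays as a group therefore cannot be told apart from a response shared by both treatments.

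Some measures of the arrays set 1 treated group apart. Median signals were 46.1 to 51.2 on untreated, 46.5 to 49.5 on inhibitor and 51.6 to 57.9 on ligand arrays, and the ligand arrays lay above all untreated ones. The log2 ratio of the 3 prime to the 5 prime control probe set of beta-actin, a sign of RNA integrity, was 0.370 to 0.433 untreated, 0.179 to 0.238 with inhibitor and 0.397 to 0.581 with ligand, and the inhibitor arrays lay below all untreated ones. With the treated arrays pooled, the exact permutation p against untreated was 0.619 for the median and 0.429 for the ratio (2-sided, 6 against 3, smallest possible 0.0238), which does not test each treatment alone. The part of these measures in the results was not tested. Markers of small intestinal epithelium were present: 24 of 24 goblet, 33 of 34 absorptive enterocyte and 15 of 15 Paneth cell markers on the array were above the filter. Arrays of a group correlated at 0.989 to 0.993 over genes. A single untreated array stood nearer to the treated ones than the others did. Untreated replicate 3 was the nearest untreated array in 335 of 627 (53.4%) higher and 175 of 352 (49.7%) lower called members, while it was the highest untreated array in 33.4% and the lowest in 32.5% of all genes. Without it, 1163 genes lay higher and 669 lower by the array rule.

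Each gene was also tested by a contrast that takes the mean of the changes under inhibitor and under ligand from untreated, on the log2(signal + 16) scale, and this mean is the change given below unless a treatment is named. It was called in 3079 genes (23.8% of those tested) at a limma adjusted p under 0.05, 1647 higher (12.7%) and 1432 lower (11.1%). Without untreated replicate 2 it was called in 2025 genes, 892 of them lower. Of the 1196 genes of the array rule, 979 were called (7.57% of all tested), 627 higher (4.85%) and 352 lower (2.72%), and these are the called members. The other 217 did not pass. The median change was 0.504 over called higher members, from 0.158 to 3.16, and -0.408 over called lower members, from -0.157 to -2.25, against 0.0144 over all genes. Changes of at least 1.5-fold under each treatment were held by 144 higher and 42 lower members. The 2 directions depended on the scaling: with each array centred on its median, called members were 403 higher and 455 lower, and higher genes made up 45.3% of the array rule in place of 63.1%. When the 6 treated arrays were fitted as 1 group, so that differences between ligand and inhibitor counted as noise, 92 higher and 27 lower members were called.

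**Figure D1:**
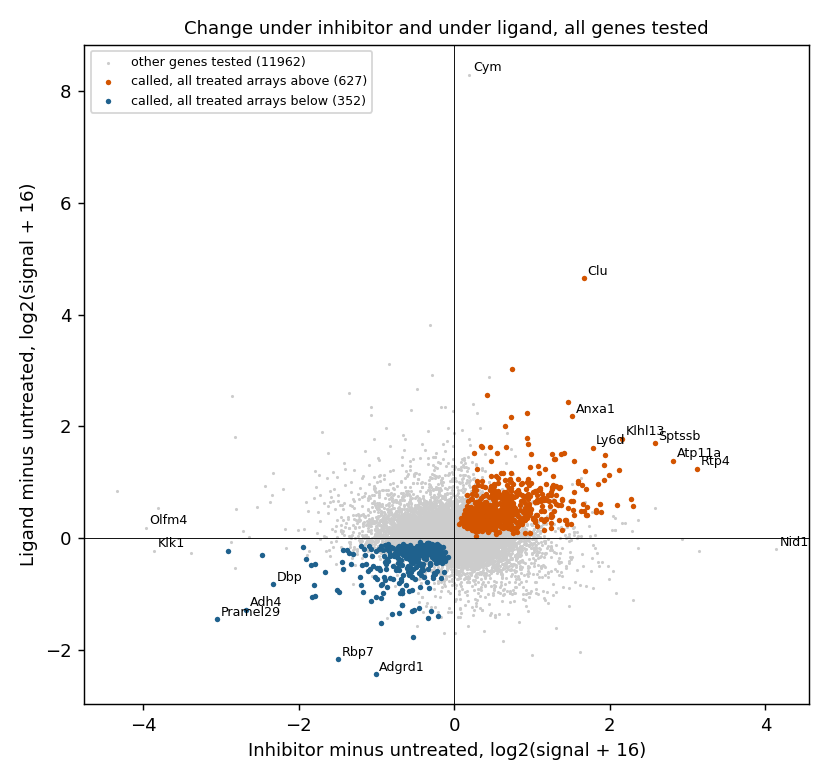
Change under the inhibitor (x axis) and with the ligand (y axis) from untreated, each on the log2(signal + 16) scale, for the 12941 genes tested. Orange points are the 627 called genes with all treated arrays above the untreated ones and blue points the 352 called genes with all below. Clu and Rbp7 lie far from 0 on both axes, while Cym and Nid1 lie near 0 on 1 of them and are not members.

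Many members stood at different heights in the 2 treated groups. The array rule also used the treated arrays, so the shares of members that differed between ligand and inhibitor describe them and are no independent test. Ligand against inhibitor was called in 55.6% of all genes, in 274 of 627 called higher members (43.7%) and in 176 of 352 called lower members (50%). Of these 274 higher members, 189 lay further from untreated under the inhibitor and 85 with the ligand. Of the 176 lower members, 141 lay further under the inhibitor and 35 with the ligand. Called members that differed numbered 450 in all, and 684 without untreated replicate 3. The median change of called higher members was 0.539 under the inhibitor and 0.448 with the ligand, and that of called lower members was -0.488 and -0.294. Taken alone, the inhibitor comparison (called in 45.1% of all genes, 21.2% higher) was called in 537 of the higher members. The ligand comparison (called in 24.1% of all genes, 14.8% higher) was called in 472 of them. For the lower members the counts were 319 and 224, beside 23.9% and 9.36% of all genes.

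The higher members with the largest shared change, which is the smaller of the changes under the 2 treatments, are described first. Klhl13, a kelch-repeat adaptor of cullin ubiquitin ligases, had signals of 5.41, 21.3 and 25.8 on the untreated, 130.4, 127 and 124 on the inhibitor and 99.5, 90.0 and 95.1 on the ligand arrays. Its untreated signals lay under the filter level of 25.9 to 32, below which MAS5 signals are noisy, so its changes of 4.45-fold under the inhibitor and 3.44-fold with the ligand are understated. Sptssb, a small subunit of the enzyme that starts sphingolipid synthesis, had 71.6, 90.9 and 146 on the untreated, 714, 653 and 649 on the inhibitor and 430, 257 and 405 on the ligand arrays. Its inhibitor arrays all lay above its ligand arrays, and ligand minus inhibitor was -0.89 ± 0.21 (limma adjusted p 0.00227). Atp11a, a flippase that moves phospholipids across the membrane, had 107, 98.5 and 147 on the untreated, 1021, 881 and 842 on the inhibitor and 359.9, 355 and 278 on the ligand arrays, and rose 7.02-fold under the inhibitor and 2.61-fold with the ligand. The tubulin gene Tuba1a had 575, 713 and 794 on the untreated, 2985, 2785 and 2244 on the inhibitor and 1735, 1895 and 1598 on the ligand arrays. Its only probe set above the filter ended in _x_at, a type used here only where no other was left. Whether that probe set also reads related tubulin genes was not tested. In Atp11a and Tuba1a, too, the inhibitor arrays lay above all ligand arrays.

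Further leading members differed in how the treated groups compared. Rab34, a small GTPase of the secretory pathway and of cilia, had signals of 40.7, 46.4 and 46.0 on the untreated, 154, 137 and 144 on the inhibitor and 161, 168 and 141 on the ligand arrays. Its inhibitor and ligand arrays overlapped, with a ligand minus inhibitor difference of 0.10 ± 0.12 (limma adjusted p 0.517). Phldb2, which anchors microtubules at the cell cortex, had 371, 413 and 569.7 on the untreated, 1128, 1175 and 1235 on the inhibitor and 1465, 1249 and 1160 on the ligand arrays, a difference of 0.12 ± 0.13 (limma adjusted p 0.445). The treated arrays of Phldb2 also overlapped. Samd5, a protein with a SAM domain, had 47.5, 19.8 and 52.5 on the untreated, 179.7, 134 and 112 on the inhibitor and 116, 138 and 117 on the ligand arrays, and rose 2.89-fold under the inhibitor and 2.59-fold with the ligand. Eid2, an inhibitor of differentiation that binds the acetyltransferase EP300, had 33.1, 52.2 and 73.3 on the untreated, 241, 252 and 228 on the inhibitor and 183, 156 and 174 on the ligand arrays. Tnfrsf19, a receptor of the TNF family known from intestinal stem cells, had 19.6, 24.2 and 57.5 on the untreated, 107, 119 and 116 on the inhibitor and 223, 308 and 202 on the ligand arrays. Here the ligand arrays lay above the inhibitor arrays (limma adjusted p 0.00264). In Eid2 the inhibitor arrays lay above the ligand arrays (limma adjusted p 0.0404).

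The 12 lower members with the largest shared change are described next. Rbp7, a retinol-binding protein, had signals of 495, 466 and 302 on the untreated, 140, 131 and 135 on the inhibitor and 69.5, 84.9 and 84.5 on the ligand arrays, so it was lower 2.83-fold under the inhibitor and 4.49-fold with the ligand. The 3 groups of Rbp7 did not overlap, and the ligand arrays were the lowest. Adh4, an alcohol dehydrogenase that also oxidises retinol, had 2754, 2197 and 1861 on the untreated, 394, 334 and 292 on the inhibitor and 920.3, 786 and 1044 on the ligand arrays, and here the inhibitor arrays were the lowest. Adh7, of the same family, had 121, 143 and 184 on the untreated, 48.7, 74.3 and 48.9 on the inhibitor and 52.9, 50.1 and 112 on the ligand arrays, and its inhibitor and ligand arrays overlapped. Cyp2c70, a cytochrome P450 that hydroxylates bile acids in mice, had 178, 140.4 and 148 on the untreated, 81.5, 76.4 and 61.5 on the inhibitor and 89.6, 65.3 and 46.2 on the ligand arrays. Its change was -1.01 ± 0.16 (limma adjusted p 0.000607), and its treated groups overlapped. Acsm5, a mitochondrial acyl-CoA synthetase, had 55.5, 47.2 and 40.4 on the untreated, 14.9, 23.6 and 13.3 on the inhibitor and 7.78, 0.77 and 11.3 on the ligand arrays, with both treated groups under the filter level.

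Fbp1, an enzyme of gluconeogenesis, had signals of 6057, 6322 and 4619 on the untreated, 2804, 2786 and 2745 on the inhibitor and 2813, 2580 and 2677 on the ligand arrays. It fell by almost the same factor in each group, 2.01-fold under the inhibitor and 2.08-fold with the ligand, and ligand minus inhibitor was -0.05 ± 0.10 (limma adjusted p 0.72). Aqp3, a water and glycerol channel, had 289.6, 162 and 189 on the untreated, 75.8, 89.7 and 109 on the inhibitor and 93.2, 84.4 and 81.0 on the ligand arrays, and was lower 2.1-fold under the inhibitor and 2.19-fold with the ligand. The kelch gene Klhl23 had 588, 654 and 652 on the untreated, 163, 179.9 and 169 on the inhibitor and 292, 319.5 and 293 on the ligand arrays, with the ligand arrays between the other groups. Pbld1 ranged over 308 to 522 untreated, 119.9 to 144 with inhibitor and 185 to 206 with ligand (limma adjusted p 3.11e-05). Adgrd1, an adhesion G protein-coupled receptor, fell further with the ligand, from 306, 246 and 204 to 19.8, 40.6 and 42.0, than under the inhibitor, where it had 120.4, 109 and 117. Pramel29, of the PRAME-like family, fell from 859, 676 and 443 to 84.7, 47.1 and 60.6 under the inhibitor and 300.2, 204 and 180.1 with the ligand. The alkaline phosphatase gene Alppl2 ranged over 78.7 to 135 untreated, 16.3 to 23.8 with inhibitor and 32.6 to 67.9 with ligand, with its inhibitor arrays under the filter level.

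**Figure D2:**
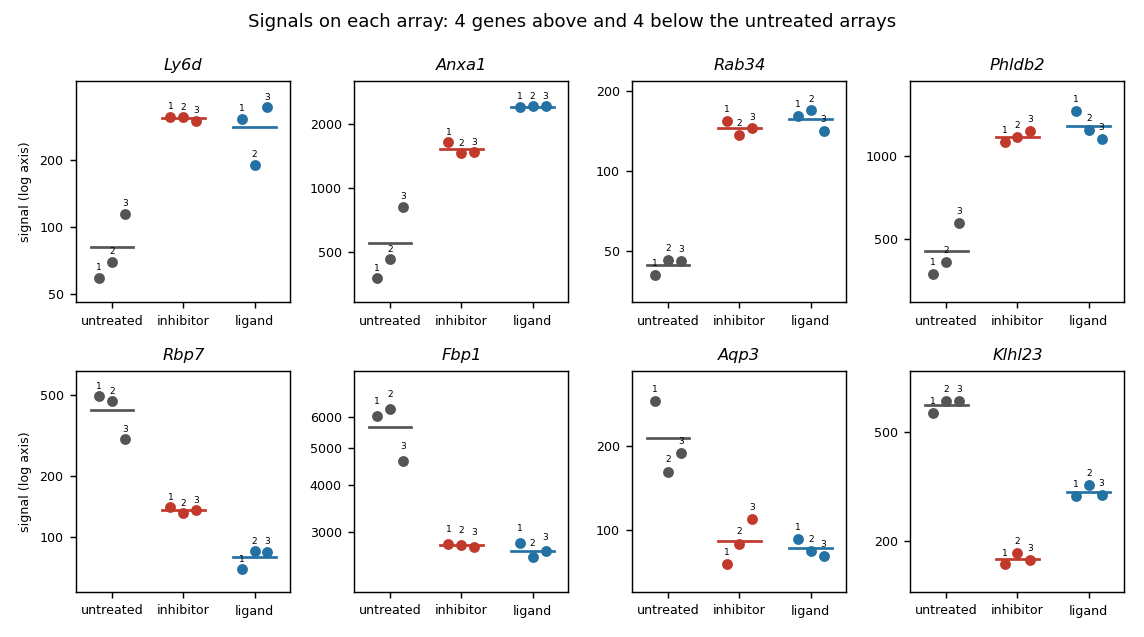
Signal (log axis) of 4 higher members (top row) and 4 lower members (bottom row) on each array, numbered by replicate, with the group mean as a line. The treated arrays of Rab34, Phldb2, Fbp1 and Aqp3 overlap between inhibitor and ligand, and in Ly6d, Anxa1, Phldb2, Rbp7 and Fbp1 untreated replicate 3 is the untreated array nearest to the treated ones.

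At the edge of the rule, groups nearly touched. The higher members Ccnl1 (untreated 2364, 2344 and 2286, lowest treated array 2364) and Med10 (highest untreated array 1582, and the same signal as rounded on the lowest treated array) lay just inside. Dynlt3 and Sectm1a failed by the least, with highest untreated arrays of 3003 and 75.0 beside lowest treated arrays of 3003 and 75.0. On the lower side Sun1 (lowest untreated 1163, highest treated 1163) and Ndufa10 (lowest untreated 6545, highest treated 6544) lay just inside. The cDNA gene 4921524J17Rik (lowest untreated 794, and 794 on ligand replicate 2) and Pex5 (lowest untreated 615, highest treated 615) lay just outside.

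Among lists with at least 10 genes tested, markers of fetal-like and regenerating epithelium had the largest share of called higher members. These genes are known from fetal gut and from the epithelium that repairs injury. Of 18 tested, 9 (50%) were called higher members and 0 lower, where 4.85% and 2.72% of all genes were, and the list's median change was 0.89 against 0.0144 over all genes. The 9 were Clu, Anxa1, Anxa3, Ly6d, Sprr1a, Il1rn, Lgals3, Cldn4 and Reg3b. The summed signal of the list was 24460 to 27520 on untreated, 45810 to 48930 on inhibitor and 37910 to 42830 on ligand arrays. In whole organoids, more cells of a type and more RNA per cell cannot be told apart. Over the 20 alternatives in which lists were counted, it had 6 higher called members in the fit with treated arrays as 1 group and 9 to 13 in the others. Untreated replicate 3 was the highest untreated array in 8 of the 9, and its part in the result was not tested. The list's median stayed between 0.859 and 1.03 in these alternatives, that without untreated replicate 3 included.

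Clu, a secreted chaperone that marks revival stem cells, had signals of 82.0, 66.2 and 139 on the untreated, 343, 322 and 314 on the inhibitor and 2841, 2954 and 2312 on the ligand arrays. It rose 3.18-fold under the inhibitor and 25.1-fold with the ligand, and the ligand arrays lay far above the inhibitor arrays (limma adjusted p 1.59e-08). Anxa1, a phospholipid-binding annexin, had 376, 462 and 816 on the untreated, 1646, 1459 and 1480 on the inhibitor and 2413, 2423 and 2422 on the ligand arrays, and Anxa3 had 522, 620 and 1165 on the untreated, 1538, 1351 and 1425 on the inhibitor and 1772, 1688 and 1852 on the ligand arrays. In both annexin genes untreated replicate 3 was the highest untreated array. Ly6d, a surface protein held by a lipid anchor, had 58.9, 69.4 and 114 on the untreated, 311, 309 and 298 on the inhibitor and 305, 189 and 344 on the ligand arrays, and its treated groups overlapped. Il1rn, the interleukin-1 receptor antagonist, had 187, 195 and 289 on the untreated, 1065, 943 and 777 on the inhibitor and 562, 426 and 514 on the ligand arrays. Sprr1a, a cornified envelope protein, had 735, 735 and 1053 on the untreated, 3273, 3059 and 3251 on the inhibitor and 1698, 1455 and 2057 on the ligand arrays. In Il1rn and Sprr1a the inhibitor arrays lay above all ligand arrays (limma adjusted p 0.000333 and 8.9e-05).

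The remaining 3 changed less. Lgals3, a galactose-binding lectin, ranged over 1711 to 2289 untreated, 4187 to 4496 with inhibitor and 3051 to 4375 with ligand. The tight junction claudin Cldn4 ranged over 1205 to 2021 untreated, 2527 to 2817 with inhibitor and 2396 to 3224 with ligand, with a ligand minus inhibitor difference of 0.04 ± 0.16 (limma adjusted p 0.839). Reg3b, an antimicrobial lectin, had 4516, 4442 and 2491 on the untreated, 7282, 8971 and 8093 on the inhibitor and 5535, 6655 and 5845 on the ligand arrays, and is the exception in which untreated replicate 3 was the lowest array. Lists share genes: Clu, Anxa1 and Anxa3 are also targets of YAP, the growth regulator of the Hippo pathway. Of its 16 tested targets 5 (31.2%) were called higher members and 0 lower (median change 0.66), beside 4.85% and 2.72% of all genes. The other 2 were the matricellular gene Ccn2, with signals of 17.5, 22.6 and 47.4 on the untreated, 70.4, 68.5 and 62.7 on the inhibitor and 167, 201 and 199 on the ligand arrays, and the Hippo kinase gene Lats2, with 32.0, 25.7 and 40.6 on the untreated, 59.2, 66.3 and 64.03 on the inhibitor and 76.5, 71.9 and 41.7 on the ligand arrays. Ccn2 stood higher with the ligand (limma adjusted p 0.00011), and its untreated signals were near the filter level. In all 5 untreated replicate 3 was the highest untreated array.

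Promoters of the members were searched for AP-1 sites (TGANTCA), TEAD sites (GGAATG), through which YAP acts, E-boxes (CACGTG) and the RORE core (AGGTCA), on both strands of the 250 bases before each RefSeq start. RefSeq promoters (build GRCm38.p6) were found for 10467 of the 12941 genes tested, 502 of the 627 called higher and 284 of the 352 called lower members. AP-1 sites were in 7.57% of higher, 5.63% of lower and 5.89% of all promoters, and TEAD sites in 14.1%, 13.0% and 13.0%. A promoter was found for 6 of the 9 fetal-like members, and not for Clu, Anxa3 and Ly6d. Of the 6, Sprr1a, Il1rn and Cldn4 held an AP-1 site and Anxa1 and Il1rn a TEAD site. The stretches below, chosen after the matches were seen, show in capitals the matches to TGANTCA, where N is any base. They are from the higher member with the largest shared change and from the cornified envelope and interleukin antagonist genes. The middle base of the match was T in Klhl13 and G in Sprr1a and Il1rn. No site shown overlapped another motif searched. The stretches run 5 prime to 3 prime on the gene's strand.
Klhl13 (chrX:23266866-23266972, minus strand): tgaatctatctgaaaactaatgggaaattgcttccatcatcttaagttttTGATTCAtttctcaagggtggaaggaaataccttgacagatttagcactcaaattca
Sprr1a (chr3:92485941-92486077, minus strand): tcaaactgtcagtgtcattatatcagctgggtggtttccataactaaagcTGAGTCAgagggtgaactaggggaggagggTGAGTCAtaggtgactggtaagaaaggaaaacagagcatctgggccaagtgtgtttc
Il1rn (chr2:24336669-24336775, plus strand): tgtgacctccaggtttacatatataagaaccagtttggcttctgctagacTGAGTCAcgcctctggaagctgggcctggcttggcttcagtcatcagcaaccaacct
A match in these letters is a description of the sequence and shows no binding.

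Genes of the extracellular matrix and its receptors gave 9 called higher members and 1 lower of 28 tested. Together these were 35.7%, beside 7.57% of all genes, and the list's median change was 0.38. Laminins, the cross-shaped proteins of the basement membrane, supplied 4 of the higher members. Lama3 had signals of 46.4, 42.5 and 47.2 on the untreated, 60.8, 77.1 and 50.1 on the inhibitor and 198, 172 and 159.7 on the ligand arrays, and its ligand arrays lay above all others (limma adjusted p 8.25e-06 for ligand against inhibitor). Under the inhibitor alone the change of Lama3 was 0.34 ± 0.15 and did not pass (limma adjusted p 0.0839). Lamb3 had 801, 807 and 892 on the untreated, 1297, 1415 and 1376 on the inhibitor and 968, 932 and 1042 on the ligand arrays, with the inhibitor arrays highest. Lama5 ranged over 161 to 233 untreated, 244 to 283 with inhibitor and 327 to 371 with ligand, and Lamc1 over 221 to 240.2 untreated, 283 to 330.3 with inhibitor and 318 to 357 with ligand.

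The integrin chains Itgav and Itgb4, which bind matrix from the cell side, ranged over 966 to 1204 untreated, 1510 to 1814 with inhibitor and 1475 to 1483 with ligand, and over 291 to 327 untreated, 557 to 609.6 with inhibitor and 329 to 415 with ligand. The hyaluronan receptor gene Cd44 had 1527, 1805 and 2231 on the untreated, 2418, 2751 and 2464 on the inhibitor and 3725, 3509 and 3374 on the ligand arrays, and the proteoglycan gene Agrn had 1175, 1082 and 1035 on the untreated, 1812, 1732 and 1634 on the inhibitor and 1256, 1241 and 1274 on the ligand arrays. Cd44 stood higher with the ligand and Agrn with the inhibitor, and in neither did the 2 treated groups overlap. Timp1, an inhibitor of matrix proteases, ranged over 18.4 to 26.5 untreated, 45.4 to 55.4 with inhibitor and 41.5 to 45.5 with ligand, from untreated signals about the filter level. Hspg2, the basement membrane proteoglycan perlecan, was the lower member, with 261, 247 and 319 on the untreated, 230.2, 222 and 192 on the inhibitor and 212, 243 and 220.3 on the ligand arrays and a change of -0.30 ± 0.10 (limma adjusted p 0.0405). In 7 of the 9 higher members untreated replicate 3 was the highest untreated array, whose part was not tested. The list had 6 to 11 higher members under the other alternatives, and 1 with the treated arrays as 1 group. Hspg2 was no called member in several alternatives. The list had 0 called lower members with no filter, with probe sets averaged and without untreated replicate 1 or 3, among others.

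Some genes that answer growth factor signals through ERK and AP-1 were higher. Of 23 tested EGF receptor and ERK response genes 5 (21.7%) were called higher members and 0 lower, with a median change of 0.26. Over all genes these shares were 4.85% and 2.72%. Dusp6, the phosphatase that switches off ERK, had signals of 866, 889 and 841 on the untreated, 2516, 2468 and 2436 on the inhibitor and 1014, 968 and 1127 on the ligand arrays. Errfi1, which restrains the EGF receptor as a feedback, had 2051, 2014 and 2092 on the untreated, 4004, 4390 and 4274 on the inhibitor and 2460, 2493 and 2771 on the ligand arrays, and the EGF family ligand gene Hbegf had 673, 558 and 668 on the untreated, 1380, 1236 and 1129 on the inhibitor and 846, 773 and 919.8 on the ligand arrays. In these 3 genes the inhibitor arrays were the highest and the ligand arrays lay between, with ligand minus inhibitor at -1.25 ± 0.07, -0.71 ± 0.07 and -0.55 ± 0.10. Plaur, the urokinase receptor, had 226, 227 and 347 on the untreated, 566, 507 and 565 on the inhibitor and 466, 459 and 502 on the ligand arrays, at -0.19 ± 0.13 between the treatments (limma adjusted p 0.238). Emp1, an epithelial membrane protein, ranged over 2041 to 2769 untreated, 4298 to 4879 with inhibitor and 2947 to 3402 with ligand. Without untreated replicate 3, this list had 8 called higher members.

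Of 23 immediate early genes, which respond to stimuli without new protein synthesis, 6 (26.1%) were called higher members and 0 lower (median change 0.3). Over all genes these shares were 4.85% and 2.72%. The phosphatase gene Dusp1 had 571, 581 and 644 on the untreated, 1127, 1313 and 1132 on the inhibitor and 758, 794 and 938 on the ligand arrays, and the transcription factor gene Klf6 had 1009, 981 and 1146 on the untreated, 1613, 1562 and 1698 on the inhibitor and 1301, 1198 and 1148 on the ligand arrays. The AP-1 subunit genes were Fos, with 6438, 6393 and 4803 on the untreated, 7884, 8945 and 7434 on the inhibitor and 7385, 6624 and 6750 on the ligand arrays, Fosl1, with 21.7 to 40.5 untreated, 50.3 to 64.6 with inhibitor and 51.2 to 86.5 with ligand, and Fosl2, with 1126 to 1230 untreated, 1254 to 1297 with inhibitor and 1421 to 1626 with ligand. Fosl1 was near the filter level in untreated arrays. The antiproliferative gene Btg2 ranged over 1029 to 1080 untreated, 1103 to 1224 with inhibitor and 1222 to 1312 with ligand. Fosl2 and Btg2 moved little, by 0.23 ± 0.06 and 0.21 ± 0.06. The call of Fosl1 was lost without untreated replicate 1, that of Fosl2 without untreated replicate 2, and that of Btg2 without untreated replicate 2 or 3, and those of Fosl2 and Btg2 also with median centring. With median centring the list had 2 called members.

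Stress and defence genes contributed smaller sets. Of 26 interferon response genes 5 (19.2%) were called higher members and 0 lower, beside 4.85% and 2.72% of all genes. The list's median change was 0.39, with 0.6 under the inhibitor and 0.043 with the ligand. Under the inhibitor alone 16 of the 26 passed higher and 1 lower, and with the ligand alone 4 higher and 1 lower. Rsad2, the antiviral enzyme viperin, had 50.5, 57.1 and 56.7 on the untreated, 138, 205 and 144 on the inhibitor and 133, 99.8 and 127 on the ligand arrays, with the inhibitor arrays above the ligand arrays, a difference that did not pass (limma adjusted p 0.0576). Rtp4, a chaperone of receptors induced by interferon, had 19.4, 3.001 and 27.6 on the untreated, 119, 424 and 309 on the inhibitor and 70.7, 36.7 and 69.6 on the ligand arrays, with an untreated mean under the filter level and a wide spread among inhibitor arrays. Irf1, a transcription factor of the response, had 298, 307 and 301 on the untreated, 349.9, 336 and 347 on the inhibitor and 471, 486 and 507 on the ligand arrays, highest with the ligand. Parp14 ranged over 75.8 to 94.8 untreated, 159.9 to 219.7 with inhibitor and 100.3 to 116 with ligand, and Usp18, a protease that limits the response, over 7.11 to 20.9 untreated, 26.4 to 54.2 with inhibitor and 24.4 to 35.4 with ligand, both low signals. Of 23 targets of p53, Plk2, Trp53inp1 and Btg2 were called higher members (13%), among which the kinase gene Plk2 had 196, 159.7 and 177 on the untreated, 395, 379 and 399 on the inhibitor and 513, 456 and 409 on the ligand arrays. Plk2 rose 2.11-fold under the inhibitor and 2.45-fold with the ligand. Without ligand replicate 1, 5 of the p53 targets were called higher members, and with median centring 1. The median change of the p53 list was 0.58 under the inhibitor and -0.036 with the ligand. Under the inhibitor alone 18 of the 23 passed higher and 0 lower, and with the ligand alone 3 higher and 4 lower. Of 15 heat shock genes only Hspa1b and Dnajb1 were called members, both higher (13.3%). The list's median change was -0.05, with -0.2 under the inhibitor and 0.14 with the ligand. Under the inhibitor alone 2 of the 15 passed higher and 5 lower, and with the ligand alone 4 higher and 0 lower. The inducible heat shock protein gene Hspa1b had 390.5, 388 and 564 on the untreated, 1369, 1252 and 1305 on the inhibitor and 957, 872 and 597 on the ligand arrays. Dnajb1 changed by 0.22 ± 0.06. The call of Dnajb1 was lost with median centring, with probe sets averaged and without untreated replicate 1 or 3.

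Genes of the liver X receptor and of sphingolipids had a list median of 0.43 under the inhibitor and -0.084 with the ligand. Under the inhibitor alone 17 of 27 passed higher and 2 lower, and with the ligand alone 3 higher and 6 lower. Of the 27, 5 (18.5%) were called higher members and 0 lower, beside 4.85% and 2.72% of all genes, with a median change of 0.16. Besides Sptssb these were the lysosomal hydrolase genes Asah1, over 2841 to 2982 untreated, 3824 to 4200 with inhibitor and 3108 to 3542 with ligand, and Smpd1, over 186 to 210 untreated, 306 to 372 with inhibitor and 212 to 249 with ligand, which break down ceramide and sphingomyelin. The cholesterol exporter gene Abcg1 ranged over 28.1 to 39.3 untreated, 46.1 to 55.9 with inhibitor and 51.2 to 75.7 with ligand, and Mylip, which degrades the LDL receptor, over 62.3 to 67.2 untreated, 77.8 to 94.6 with inhibitor and 89.6 to 116 with ligand. Asah1 and Smpd1 stood higher under the inhibitor, and their changes with the ligand alone, 0.16 ± 0.07 and 0.18 ± 0.10, did not pass (limma adjusted p 0.127 and 0.232). The call of Mylip was lost without untreated replicate 1 or 2. Leaving out untreated replicate 2, median centring and the filter at the 60th percentile each left 3 called members of this list.

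Circadian clock genes moved in both directions. In the clock, BMAL1 (Arntl) with CLOCK or NPAS2 drives genes through E-boxes, among them its own repressors PER and REV-ERB and the factors DBP and TEF. Of 18 tested, 5 were called lower members (Dbp, Per2, Ciart, Tef and Nr1d1) and 2 higher (Arntl and Npas2), together 38.9%, where 7.57% of all genes were called members. Dbp had signals of 726, 708 and 619.5 on the untreated, 113, 128 and 128 on the inhibitor and 421, 374 and 345 on the ligand arrays, and was lower 5.04-fold under the inhibitor and 1.77-fold with the ligand. Per2 had 508, 457 and 482 on the untreated, 222, 224 and 222 on the inhibitor and 387, 396 and 364 on the ligand arrays, Ciart, a repressor of the clock, 319, 295 and 274 on the untreated, 102, 104 and 112 on the inhibitor and 221, 264 and 243 on the ligand arrays, and Tef 991, 964 and 918 on the untreated, 595, 519 and 536 on the inhibitor and 871, 852 and 809 on the ligand arrays. In these 4 genes the groups did not overlap, the inhibitor arrays were the lowest and the ligand arrays lay nearer to untreated. With the ligand alone the changes were -0.82 ± 0.10 for Dbp and -0.32 ± 0.08 for Per2, which passed, and -0.27 ± 0.10 for Ciart and -0.18 ± 0.07 for Tef, which did not (limma adjusted p 0.0745 and 0.0918).

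Nr1d1, the repressor REV-ERB alpha, had 156, 123 and 143 on the untreated, 108, 104 and 76.8 on the inhibitor and 116, 70.0 and 97.3 on the ligand arrays, and its treated arrays overlapped widely. Arntl, the activating partner, had 250.4, 239 and 226 on the untreated, 416, 427 and 417 on the inhibitor and 291, 270.2 and 259 on the ligand arrays, and Npas2 had 267, 269.8 and 382 on the untreated, 544, 580.4 and 591 on the inhibitor and 457, 417 and 393 on the ligand arrays. Both rose most under the inhibitor, and the untreated and ligand arrays of Npas2 nearly touched. With each array centred on its median, 0 higher and 6 lower members were called among the 18. With the treated arrays as 1 group, 0 of the 18 were called. Nr1d2 and Per3, further repressors, were not members. Nr1d2 had 2354, 2895 and 2517 on the untreated, 763, 954 and 862 on the inhibitor and 2941, 2742 and 2990 on the ligand arrays. Per3 ranged over 344 to 415 untreated, 109 to 125 with inhibitor and 338 to 374 with ligand. The ligand arrays of both overlapped the untreated ones, and ligand minus inhibitor was 1.74 ± 0.09 and 1.48 ± 0.10 (limma adjusted p 5.83e-09 and 5.45e-08). The labels give no hour of collection.

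**Figure D3:**
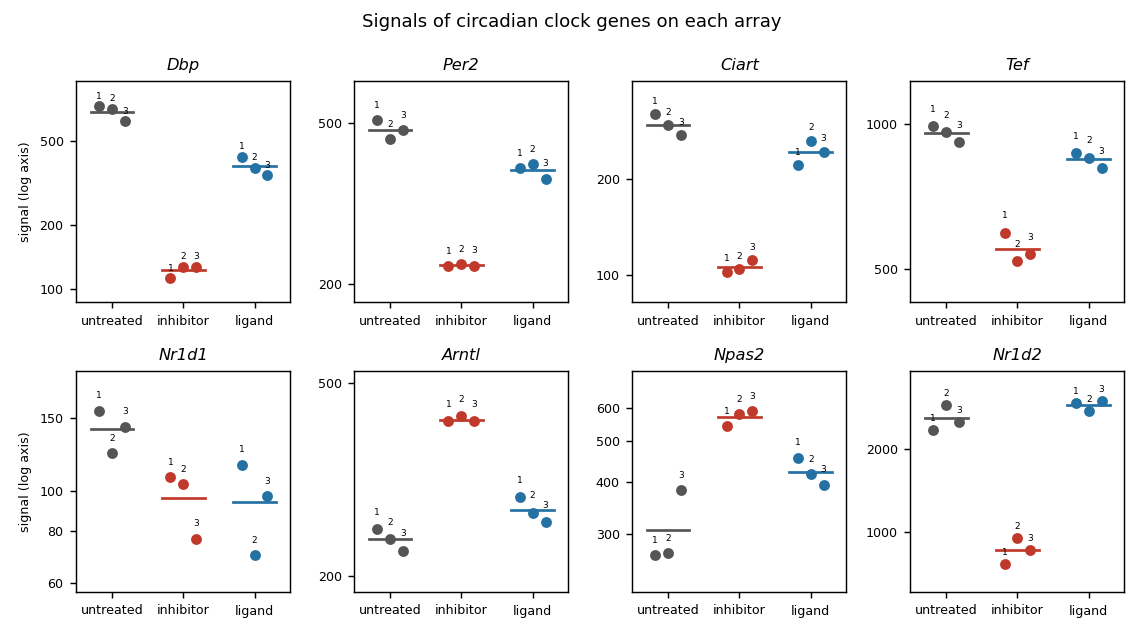
Signal (log axis) of 8 circadian clock genes on each array, numbered by replicate, with the group mean as a line. In Dbp, Per2, Ciart and Tef the untreated arrays are highest, the ligand arrays lie between and the inhibitor arrays are lowest, Arntl and Npas2 run the other way, and in Nr1d2 the ligand arrays (2742 to 2990) lie among or above the untreated ones (2354 to 2895).

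E-boxes were in 12.7% of called lower, 7.97% of called higher and 9.82% of all promoters searched, and the RORE core, read by REV-ERB, in 14.8%, 11.6% and 13.3%. A promoter was found for 4 of the 5 lower clock members, and not for Per2. Of the 4, Ciart and Tef held E-boxes in the window. Their stretches, chosen after the matches were seen, are shown with the E-boxes in capitals, on the gene's strand. Ciart held 3.
Ciart (chr3:95882229-95882394, minus strand): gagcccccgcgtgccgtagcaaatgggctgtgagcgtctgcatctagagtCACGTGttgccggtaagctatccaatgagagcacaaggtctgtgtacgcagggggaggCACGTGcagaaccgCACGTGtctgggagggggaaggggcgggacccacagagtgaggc
Tef (chr15:81802496-81802601, plus strand): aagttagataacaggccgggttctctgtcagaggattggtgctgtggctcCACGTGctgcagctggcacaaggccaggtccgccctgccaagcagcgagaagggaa
No match in a window says only that these letters are not in its 250 bases.

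A minority of proliferation genes lay lower under both treatments. Of 34 tested, 6 (17.6%) were called lower members, beside 2.72% of all genes, and 0 higher. The list's median change was -0.36, with -0.86 under the inhibitor and 0.073 with the ligand. Under the inhibitor alone 0 of the 34 passed higher and 30 lower, and with the ligand alone 8 higher and 5 lower. The mitotic kinesin gene Kif11 had signals of 1196, 1198 and 1258 on the untreated, 579.8, 575 and 557 on the inhibitor and 1029, 1058 and 1081 on the ligand arrays. The mitotic kinase gene Aurka had 992, 963 and 1056 on the untreated, 596, 603 and 483 on the inhibitor and 827, 755 and 828 on the ligand arrays, and Birc5, the survivin of the mitotic spindle, 2163, 2563 and 2173 on the untreated, 1252, 1195 and 1305 on the inhibitor and 1874, 1748 and 1702 on the ligand arrays. The ligand arrays of these 3 genes lay between the others. The cyclins Ccnb2 and Ccna2 ranged over 2393 to 2628 untreated, 1324 to 1425 with inhibitor and 2131 to 2232 with ligand, and over 2750 to 2860 untreated, 1430 to 1625 with inhibitor and 2538 to 2605 with ligand. With the ligand alone, Ccnb2 passed (-0.20 ± 0.07, limma adjusted p 0.0426) and Ccna2 did not (-0.14 ± 0.07, 0.167). Rrm2, a subunit that makes deoxyribonucleotides, had 948, 1153 and 1115 on the untreated, 784, 830.2 and 659 on the inhibitor and 823, 915 and 798 on the ligand arrays, with treated groups that overlapped. The proliferation marker Mki67 was no member, with 3614 to 3802 untreated, 2310 to 2619 with inhibitor and 3438 to 4025 with ligand.

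Integrated stress response genes, which include the enzymes of mitochondrial folate metabolism, gave 4 called lower members of 19 (21.1%) and 0 higher. Over all genes 2.72% were called lower members. The list's median change was -0.085, with -0.33 under the inhibitor and -0.17 with the ligand. Under the inhibitor alone 6 of the 19 passed higher and 10 lower, and with the ligand alone 2 higher and 6 lower. Aldh1l2 stood at nearly the same level in both treated groups, with 642, 672 and 679 on the untreated, 432, 453 and 445 on the inhibitor and 430.2, 467 and 476 on the ligand arrays (ligand minus inhibitor 0.04 ± 0.07). Mthfd2 had 1661, 1929 and 2001 on the untreated, 1232, 1115 and 1076 on the inhibitor and 1297, 1345 and 1451 on the ligand arrays, and Shmt2 had 834, 881 and 904 on the untreated, 414, 373 and 411 on the inhibitor and 795, 768 and 797 on the ligand arrays. The arrays of Shmt2 were far lower under the inhibitor, and its change with the ligand alone, -0.15 ± 0.07, did not pass (limma adjusted p 0.157). The transcription factor gene Cebpb had 2131, 1956 and 1972 on the untreated, 1212, 1160 and 1141 on the inhibitor and 1680, 1575 and 1584 on the ligand arrays. Nqo1, a quinone reductase counted among NRF2 and aryl hydrocarbon receptor targets, had 1095, 972 and 785 on the untreated, 651, 625 and 602 on the inhibitor and 609, 555 and 617 on the ligand arrays, and its treated groups overlapped. It was the 1 called member among 20 NRF2 targets (5%) and among 5 aryl hydrocarbon receptor targets (20%), beside 7.57% of all genes. Under the inhibitor alone 10 of the 20 NRF2 targets passed higher and 1 lower, and with the ligand alone 0 higher and 13 lower. For the 5 aryl hydrocarbon receptor targets these counts were 4 and 1 under the inhibitor, and 0 and 3 with the ligand. Slco2b1, an organic anion transporter, had 1919, 1687 and 1303 on the untreated, 951, 851 and 954 on the inhibitor and 641, 579 and 656 on the ligand arrays, but its call was lost when its probe sets were averaged, and 0 of its other 2 lay on the same side.

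A few oxidative phosphorylation genes, of the respiratory chain, lay slightly lower under both treatments. Of 31 tested, 6 (19.4%), beside 2.72% of all genes, were called lower members and 0 higher (median change -0.14). They were Ndufs1, Ndufa9, Sdha, Sdhb, Cyc1 and Uqcrc2, subunits of complexes that pass electrons. Their changes were -0.25 ± 0.06, -0.22 ± 0.06, -0.25 ± 0.07, -0.29 ± 0.07, -0.24 ± 0.08 and -0.26 ± 0.08 in that order. Ndufs1 had signals of 2839, 2946 and 2800 on the untreated, 2315, 2466 and 2448 on the inhibitor and 2229, 2349 and 2589 on the ligand arrays, and its treated groups overlapped. The count rested on single arrays: it was 0 without untreated replicate 2, 2 without untreated replicate 1, 3 without inhibitor replicate 3 and 12 without ligand replicate 3, and it was 2 with median centring.

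Some markers of enteroendocrine cells, the hormone-secreting cells of the gut, were higher under both treatments. Of 28 enteroendocrine markers 5 (17.9%) were called higher members, beside 4.85% of all genes, and 0 lower (median change 0.23). These 5, described below, encode hormones. Under the inhibitor alone 6 of the 28 passed higher and 7 lower (median change 0.055), and with the ligand alone 16 higher and 0 lower (median change 0.4). Gip had 2047, 2087 and 2461 on the untreated, 2491, 2541 and 2809 on the inhibitor and 3679, 4226 and 4566 on the ligand arrays, Gcg, which encodes glucagon-like peptides, 984, 1047 and 1066 on the untreated, 1588, 1701 and 1825 on the inhibitor and 1267, 1375 and 1129 on the ligand arrays, and Sst, somatostatin, 411, 514 and 458 on the untreated, 700, 648 and 617.5 on the inhibitor and 602, 578 and 674 on the ligand arrays. The ligand arrays were highest in Gip and the inhibitor arrays in Gcg, while the treated groups of Sst overlapped. Cck, cholecystokinin, ranged over 1420 to 1568 untreated, 1843 to 2073 with inhibitor and 1767 to 1972 with ligand, and Ghrl, ghrelin, over 517 to 613 untreated, 634 to 719 with inhibitor and 688 to 918 with ligand. The summed signal of the 28 markers was 15060 to 17500 untreated, 17340 to 18320 with inhibitor and 21280 to 23190 with ligand. With median centring 3 of them were called members. The granin gene Chga was no member, with 411 to 602 untreated, 379 to 448 with inhibitor and 706 to 822 with ligand.

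In other epithelial types the shares of called members were 9.52% of stem cell, 6.06% of absorptive enterocyte and 8.33% of goblet cell markers, near the 7.57% of all genes. Of 21 stem cell markers Tnfrsf19 was a called higher member and the water channel gene Aqp4 a called lower one (2440 to 2872 untreated, 904 to 1091 with inhibitor and 2200 to 2344 with ligand). Of 33 absorptive enterocyte markers, the lactase gene Lct was higher, with 365, 362 and 386 on the untreated, 487, 486 and 460.2 on the inhibitor and 768, 768 and 628 on the ligand arrays, and the fructose transporter gene Slc2a5 lower, with 1159, 1143 and 952 on the untreated, 814, 661 and 732 on the inhibitor and 421, 473 and 399.8 on the ligand arrays. In both the ligand arrays lay furthest from untreated. Of 24 goblet cell markers the lectin gene Zg16 was lower, with 2981, 3167 and 2282 on the untreated, 1577, 1999 and 2243 on the inhibitor and 775, 617 and 1087 on the ligand arrays, and the gene of the secreted protease Clca1 was lower, with 201, 186 and 245 on the untreated, 118, 109 and 149 on the inhibitor and 102, 108 and 140 on the ligand arrays. Without ligand replicate 3, 4 goblet cell markers were called lower members. Of 15 Paneth and 17 tuft cell markers 0 were called members. The crypt and lineage markers Lgr5, Olfm4, Lyz1, Muc2, Dclk1 and Alpi were not members. Lgr5 had 2224, 2566 and 2835 on the untreated, 1555, 1576 and 1591 on the inhibitor and 4043, 4196 and 4470 on the ligand arrays, lower under the inhibitor and higher with the ligand than on any untreated array.

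Markers of cells outside the epithelium were mostly under the filter: 7 of 20 fibroblast, 8 of 22 leukocyte, 5 of 15 endothelial and 6 of 11 neuronal and glial markers were above it, and Col1a1, Col3a1, Ptprc, Cd3e, Pecam1 and Cdh5 were not. Of those above it, only Cd14 was a called member. The summed signals of the fibroblast list were 505 to 541 untreated, 415 to 457 with inhibitor and 565 to 590 with ligand, and those of the leukocyte list 609 to 749, 763 to 870 and 646 to 710. Those of the endothelial list were 433 to 561, 476 to 563 and 621 to 737, and those of the neuronal and glial list 254 to 364, 460 to 547 and 335 to 436. All ligand arrays lay above all untreated ones for the fibroblast and endothelial lists, and all inhibitor arrays below for the fibroblast list and above for the leukocyte and the neuronal and glial lists. Their part in the results was not tested.

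Of 25 target genes of the TGF-beta pathway 3 (12%) were called higher members and 0 lower, where 4.85% and 2.72% of all genes were: Ccn2, Itgav and the small GTPase gene Rhob, with 749, 684 and 718 on the untreated, 1666, 1778 and 1361 on the inhibitor and 1101, 872 and 1309 on the ligand arrays. Without untreated replicate 1 the list had 6 called higher members. The feedback regulators Pmepa1, Skil and Smad7 were not members, and neither was Tgfbi. Pmepa1 had 198, 188 and 228 on the untreated, 90.0, 78.9 and 82.3 on the inhibitor and 707, 616 and 569 on the ligand arrays, so the inhibitor arrays lay below and the ligand arrays above all untreated ones. Skil had 922, 898 and 1036 on the untreated, 952, 959 and 954 on the inhibitor and 2221, 2198 and 2514 on the ligand arrays, with only the ligand arrays apart, and Smad7 and Tgfbi ranged over 164 to 227 untreated, 112 to 172 with inhibitor and 210.2 to 249 with ligand, and over 101 to 107 untreated, 95.5 to 148 with inhibitor and 129 to 172 with ligand. Of 9 BMP target genes 0 were called members. Among 23 Notch pathway genes only the receptor gene Notch3 was a called member, on the higher side. Its share of the list, 4.35%, was near the 4.85% of all genes called higher members. Notch3 had 117, 110.3 and 144 on the untreated, 274, 278 and 300 on the inhibitor and 188, 172 and 175 on the ligand arrays.

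Of 23 ion and water channel and carbonic anhydrase genes 4 (17.4%) were called members, beside 7.57% of all genes. Clca4a and Car2 were higher and Aqp3 and Aqp4 lower. Clca4a, of the family of calcium-activated chloride channel regulators, had 192, 185 and 238 on the untreated, 611, 640.4 and 600.2 on the inhibitor and 313, 273 and 432 on the ligand arrays, and the carbonic anhydrase gene Car2 had 285, 290.4 and 403 on the untreated, 756, 622 and 557 on the inhibitor and 483, 464 and 495 on the ligand arrays. The zinc transporter gene Slc39a4 ranged over 611 to 616 untreated, 931 to 1033 with inhibitor and 711 to 898 with ligand, the chemokine gene Cxcl16 over 303 to 343 untreated, 518 to 684 with inhibitor and 348 to 388 with ligand, and Tm7sf2, an enzyme of cholesterol synthesis, over 1526 to 1709 untreated, 2383 to 2660 with inhibitor and 1805 to 2085 with ligand. In these 5 genes the inhibitor arrays were the highest. Herpud1, of the unfolded protein response, and Pdk1, a kinase that restrains pyruvate oxidation, had changes of -0.20 ± 0.06 and -0.29 ± 0.10. The call of Herpud1 was lost whichever untreated array was left out, that of Pdk1 in 10 alternatives, and that of Cd14 with median centring and without untreated replicate 1 or 2 or inhibitor replicate 1.

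**Figure D4:**
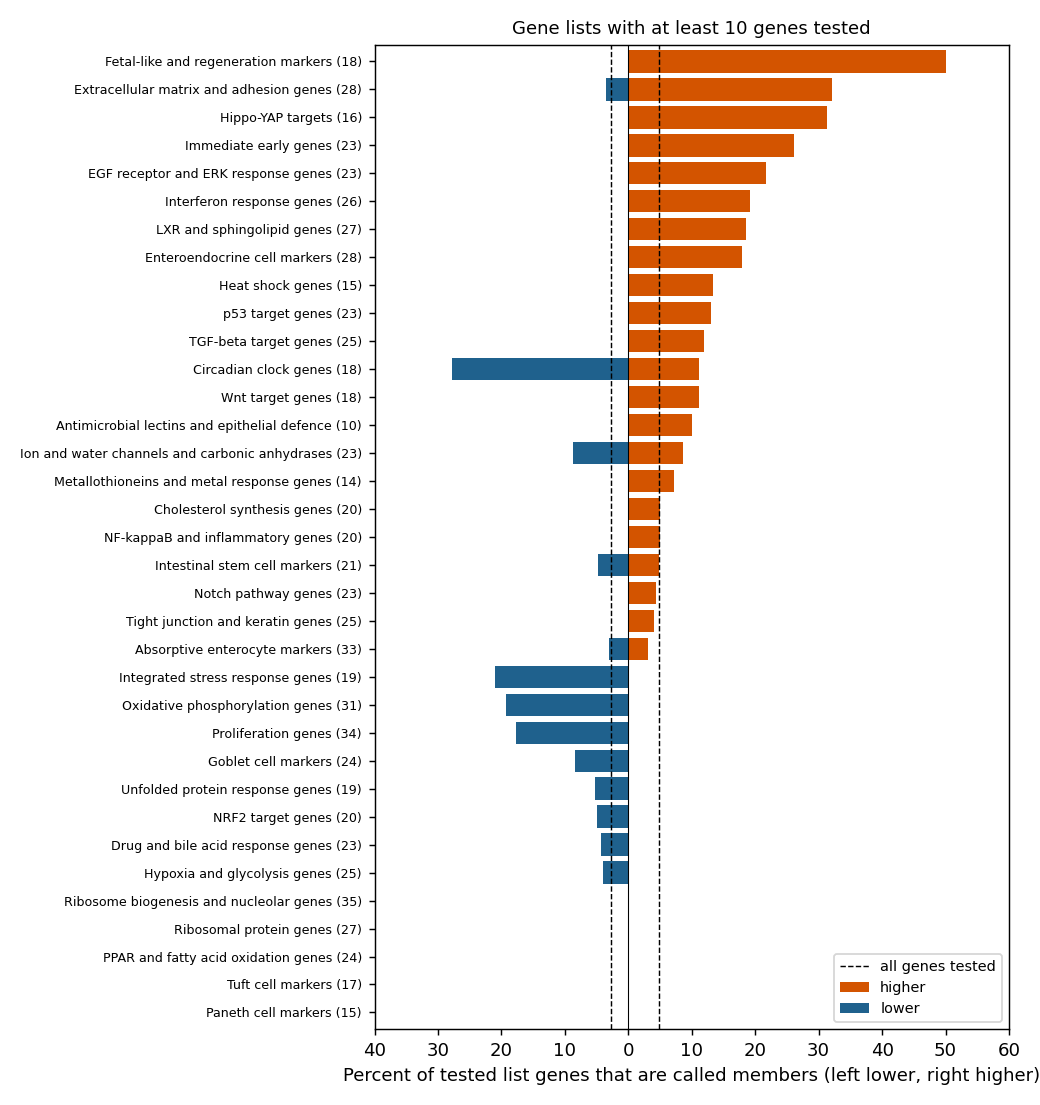
Share of the tested genes of each list (number in brackets) that were called higher members (right, orange) and called lower members (left, blue), in percent, for lists with at least 10 genes tested. Dashed lines mark the shares over all genes tested, 4.85% higher and 2.72% lower, and the bar of fetal-like and regeneration markers reaches 50%.

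Lists of ribosomal proteins (27 tested), ribosome biogenesis (35), and PPAR and fatty acid oxidation genes (24) had 0 called members, beside 7.57% of all genes. In ribosome biogenesis 25 of the 35 were called lower by the contrast, beside 11.1% of all genes, while 0 passed the array rule. This list's median change was -0.65 under the inhibitor and 0.11 with the ligand. Of 2100 called genes that were not members, 980 had changes of opposite sign and 1120 of the same sign. In the largest of them 1 treatment stood apart. Cym, the milk-clotting protease, ranged over 20.2 to 35.2 untreated, 31.9 to 41.2 with inhibitor and 13050 to 15120 with ligand. Nid1, a basement membrane protein, ranged over 64.3 to 90.4 untreated, 1612 to 1706 with inhibitor and 65.1 to 71.4 with ligand. The secreted protein gene Fstl1 followed the pattern of Cym, with 13.1 to 26.3 untreated, 4.50 to 17.8 with inhibitor and 427 to 507 with ligand. Klk1, Olfm4 and Hemgn were the lower counterparts, with changes of -3.86 ± 0.10, -3.96 ± 0.12 and -3.38 ± 0.20 under the inhibitor and -0.22 ± 0.10, 0.18 ± 0.12 and -0.26 ± 0.20 with the ligand.

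Other probe sets of the same genes gave a reading that the choice of the member did not use, from the same RNA. Of 546 further probe sets above the filter, over 321 called higher members, 146 (26.7%) lay on the same side by the array rule and 0 on the opposite side. Of 291 over 173 called lower members, 71 (24.4%) lay on the same side and 0 on the opposite side. The same rule over all 28655 probe sets above the filter, those of the members included, placed 1228 higher and 778 lower. Over all genes tested it placed 5.83% higher and 3.41% lower. Among genes described above, all 3 others of Clu and both others of Il1rn, Cd44, Hspa1b and Rsad2 lay on the same side. So did the 1 other each of Sptssb, Rab34, Errfi1, Hbegf, Aqp3, Adh7, Cebpb, Mthfd2, Herpud1, Reg3b and Dbp. In contrast, 0 of 4 did for Klf6 and 0 of 2 each for Per2 and Slco2b1. The count was 0 of 1 each for Atp11a, Tnfrsf19, Samd5, Notch3, Tef, Ccna2, Btg2, Fosl2, Dnajb1, Smpd1, Cxcl16 and Ndufa10. The lists together hold 788 tested genes and 93 of the 979 called members, so 886 called members belong to none of them. The untreated mean was at or under the filter level in 51 called higher members, and a treated mean in 13 called lower members, and the changes of these are understated.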

How the data were processed

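RNA levels were read on 9 Affymetrix Mouse Genome 430 2.0 arrays, grouped by the treatment and replicate number in their labels. The authors deposited linear intensities, a signal for every probe set on every array, made with MAS5 per the submitters' processing notes, which give no version. The trimmed mean was 350 on every array, so such scaling removes differences in total RNA. Per the labels' protocols, RNA was extracted with the miRNeasy kit and amplified from the 3 prime end.

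Of 45101 probe sets, 64 were controls. The platform annotation gave 34958 of the 45101 probe sets 1 gene symbol, 932 several and 9211 none, and 34754 of the first were matched by Entrez identifier, with 0 symbols changed. Signals became log2(signal + 16), and 28.9% of values were at or below 16. Probe sets above the 40th percentile of their array on at least 3 arrays were kept (28655). This percentile is called the filter level. The probe set with the highest mean stood for its gene, one ending in _x_at only where no other was left, which gave 12941 genes.

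Group means were fitted in a single model of all arrays with limma 3.58.1 in R 4.3.3 (6 residual degrees of freedom, variance trend with intensity, 2-sided, Benjamini-Hochberg adjustment over all genes, threshold 0.05). Errors are standard errors of log2 changes with n = 3 arrays a group. Array measures were compared by exact permutation. The fit was tested on simulated data. The array number limits precision. Same-numbered arrays of different groups deviated with correlations of -0.079 to 0.074, so numbers were not taken to pair them. The members and the 41 gene lists were chosen with earlier results of these data known. Named are, per direction, the 12 called members with the largest shared change, the 2 nearest to the edge of the rule on each side and the 3 largest called non-members, up to 4 called members with the smallest p per list, and 12 fixed genes. Further called members were named to account for whole lists.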

Additional observations from a re-analysis of the deposited data

Results flagged for a closer look

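Some probe sets that the comparisons by gene do not use met the rule for called members. Among 4767 probe sets above the filter with no gene symbol or several, 60 had all treated arrays above all untreated arrays and were called higher by limma (adjusted p under 0.05), and 48 were called lower, together 2.27% of those tested, below the 7.57% of genes that were called members. They are not named here.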

How the results depend on the processing

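Each of 105 named genes that were called was refitted in 15 to 19 alternative settings, and 0 of them changed direction. Of 12 named genes that were not called, Smad7, Lgr5, Lyz1, Chga and Dclk1 changed sign in some setting. Of the 105, 25 kept their call in every setting they were fitted in, 63 lost it only with the treated arrays as 1 group, and 17 lost it elsewhere. Of 88 recomputed counts, those without an array left aside, 73 stayed within 1.5 times. Fitting the treated arrays as 1 group called 119 genes, 92 higher and 27 lower, all of them members, because ligand minus inhibitor differences enter the residual by construction. With median centring 482 genes lay higher by the array rule and 403 were called higher members. When group means had to differ by more than 1 SD in place of every array, 1475 genes lay higher and 841 lower, 957 and 553 were called, and 823 differed between ligand and inhibitor. Over all probe sets 1228 lay higher and 778 lower, with 548 called lower. For the counts under median centring, the 1 SD rule and all probe sets the cause was not tested.

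Leaving out single arrays gave 2025 to 3394 called genes, 1133 to 1731 higher and 892 to 1663 lower, with the lowest totals without untreated replicate 2. Genes of the array rule ranged from 830 to 1163 higher and 476 to 669 lower. All these counts were above the 755 and 441 with every array kept, since fewer arrays make the rule easier to meet. The most were without untreated replicate 3. Without untreated replicate 1 there were 1008 and 627, and without untreated replicate 2 there were 980 and 588. The cause of this difference between untreated arrays was not tested. Called members ranged from 580 to 764 higher and 313 to 520 lower, and 397 to 684 of them differed between ligand and inhibitor. With the replicate number as a block (replicate block), 594 higher and 336 lower members were called, 926 of them shared with the 979 above, and 3 arrays correlated best with an array of their own number. Signals near the filter level limit what can be seen of dim genes.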
